A study of Mus musculus with 12 samples.

Results

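Microglia, the resident macrophages of the brain, were followed in RNA of the medial prefrontal cortex (mPFC) through 9 genes that mark them: P2ry12, Gpr34, Cx3cr1, Tmem119, Siglech, Csf1r, Aif1, C1qa and Trem2. The genes were taken by symbol from the single count table, where all 9 were found among 24411 genes; all 9 also passed the filter on low counts, which left 15199 genes. The tissue came from adult female mice aged 8 to 12 weeks on a C57BL/6J background, in 4 groups of 3 libraries each. They were stressed Cav3.1 knockout (KO), unstressed KO, stressed wild type (WT) and unstressed WT. Cav3.1 is the T-type calcium channel encoded by Cacna1g. Chronic stress was a forced swim test or a tail suspension test, given daily for 5 days, and the labels do not say which mouse had which test. KO mice came from a repository and WT mice from a commercial breeder, so genotype and colony cannot be told apart. The labels do not state that each library came from a separate animal, and the p-values therefore measure the spread between these libraries, which may be partly technical. Because the tissue was not sorted, fewer or more microglia and less or more RNA per microglial cell cannot be told apart in any value given here.

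Microglia depend on signalling through Csf1r, the receptor of colony stimulating factor 1 and interleukin 34, for their survival. They survey neurons through P2ry12, a receptor for ADP that directs their processes to sites of damage, and through Cx3cr1, the receptor of the neuronal chemokine fractalkine. C1q and Trem2 belong to the machinery with which microglia tag and clear synapses and debris. The transcription factor PU.1, encoded by Spi1, is required for the microglial lineage and binds purine-rich sites built around a GGAA core.

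The promoters of the members were read for 1 form of such a site, the letters GAGGAA, and are shown where these were found, among them that of Aif1, the member that differed most between genotypes. Other runs around a GGAA core were not searched. RefSeq promoter windows on GRCm38.p6 run from 250 bases before to 50 bases after the start of the gene. Those of 5 of the 9 members were read: Aif1, Cx3cr1, P2ry12, Siglech and Trem2. The other members are not reported here. These letters, searched on both strands, occurred in 3 of these 5 windows, and 28.3% of all 32851 windows hold them. The longer run GAGGAAGT, which contains the first, occurred in 0 of the 5 and in 3.2% of all windows. The 3 windows with a match are printed 5′ to 3′ on the strand of the gene, with the match in capitals. It appears as TTCCTC because it lies on the other strand in each of them. The Aif1 window is chr17:35176003-35176302 on the minus strand, with the match from position 244 of the 300 bases. The Siglech window is chr7:55767934-55768233 on the plus strand, with the match from position 247. The Trem2 window is chr17:48346151-48346450 on the plus strand, with the match from position 211. A match describes the letters and is not a measured binding site.
Aif1: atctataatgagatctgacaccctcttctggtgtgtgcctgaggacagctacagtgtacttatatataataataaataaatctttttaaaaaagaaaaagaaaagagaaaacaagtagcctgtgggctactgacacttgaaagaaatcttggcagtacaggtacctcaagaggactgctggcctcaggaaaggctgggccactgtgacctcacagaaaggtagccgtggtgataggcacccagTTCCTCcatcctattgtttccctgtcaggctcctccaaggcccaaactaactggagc
Siglech: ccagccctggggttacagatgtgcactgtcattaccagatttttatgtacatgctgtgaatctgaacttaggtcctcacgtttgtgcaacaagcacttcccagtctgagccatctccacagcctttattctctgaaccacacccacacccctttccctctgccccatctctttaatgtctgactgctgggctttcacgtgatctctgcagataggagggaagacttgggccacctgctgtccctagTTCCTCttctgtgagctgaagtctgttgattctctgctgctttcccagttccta
Trem2: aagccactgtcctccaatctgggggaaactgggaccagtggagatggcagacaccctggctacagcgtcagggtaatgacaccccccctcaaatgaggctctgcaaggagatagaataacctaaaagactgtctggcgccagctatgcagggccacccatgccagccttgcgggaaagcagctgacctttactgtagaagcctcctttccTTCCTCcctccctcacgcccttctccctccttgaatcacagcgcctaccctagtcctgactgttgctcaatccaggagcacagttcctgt

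Totals of estimated counts per library ran from 15469590 to 28022130 in stressed KO, 20892789 to 26252377 in unstressed KO, 24269178 to 29830758 in stressed WT and 27020289 to 31082240 in unstressed WT. The members had between 66 (the lowest library of Aif1) and 2967 counts (the highest of Csf1r), all far above a count of 3, which is worth 0.0920 to 0.192 CPM (counts scaled to library size) in these libraries. Cacna1g stood at 54.6 to 66.0 CPM in the 6 KO libraries, against 109 to 144 CPM in the 6 WT libraries. Its level was thus lower in every library labelled KO, but a large part of its RNA remained there. The log2 differences were -1.18 without stress and -0.93 with stress, and why RNA remained was not tested. Markers of neurons were high in all 12 libraries, at summed levels of 8268 to 9987 CPM over 7 genes, but several libraries also held markers of neighbouring tissue. The 7 tested olfactory bulb markers summed to 732, 833 and 101 CPM in unstressed WT libraries 1, 2 and 3. Among the other 9 libraries their sum ran from 23.0 to 101 CPM. The 10 meningeal and fibroblast markers summed to 111 to 287 CPM in unstressed WT and to 38.3 to 108 CPM in the other groups. Unstressed KO library 2 held the most astrocyte marker RNA, 5643 CPM over 8 genes, against 3169 to 4130 CPM elsewhere. Stressed KO library 1 held 583 CPM of 8 striatal neuron markers, against at most 183 CPM elsewhere. Values of members are therefore also given without these libraries in several places. Genes called on the other lists are given again only with unstressed WT library 3 alone for its group. They were not refitted without unstressed KO library 2 or stressed KO library 1.

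Among the members, C1qa, the A chain of the complement starter C1q, was the most abundant per length of transcript. Its level was 33.9 ± 3.57 CPM per kilobase of its principal transcript (SD over 12 libraries). Csf1r followed at 18.9 ± 1.53 and P2ry12 at 17.4 ± 2.22 CPM per kilobase, levels that overlap within their spread. Cx3cr1 came next at 12.8 ± 1.4 CPM per kilobase. Tmem119, a membrane protein used to tell microglia from other macrophages, had 8.83 ± 0.81 CPM per kilobase, close to Gpr34, a receptor for lysophosphatidylserine, at 7.84 ± 1.52 and Trem2 at 7.22 ± 0.81. Siglech, a sialic acid-binding lectin, and Aif1, which encodes the actin-binding protein Iba1 used to stain microglia, were lowest at 5.14 ± 1.01 and 4.65 ± 1.48 CPM per kilobase. Neighbours within each of these last 2 sets did not differ beyond their spread. With the length of all annotated exons in place of the principal transcript, Trem2 dropped to the last place at 1.59 CPM per kilobase and P2ry12 stood above Csf1r. The order of these genes therefore depends on the length used.

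**Figure D1:**
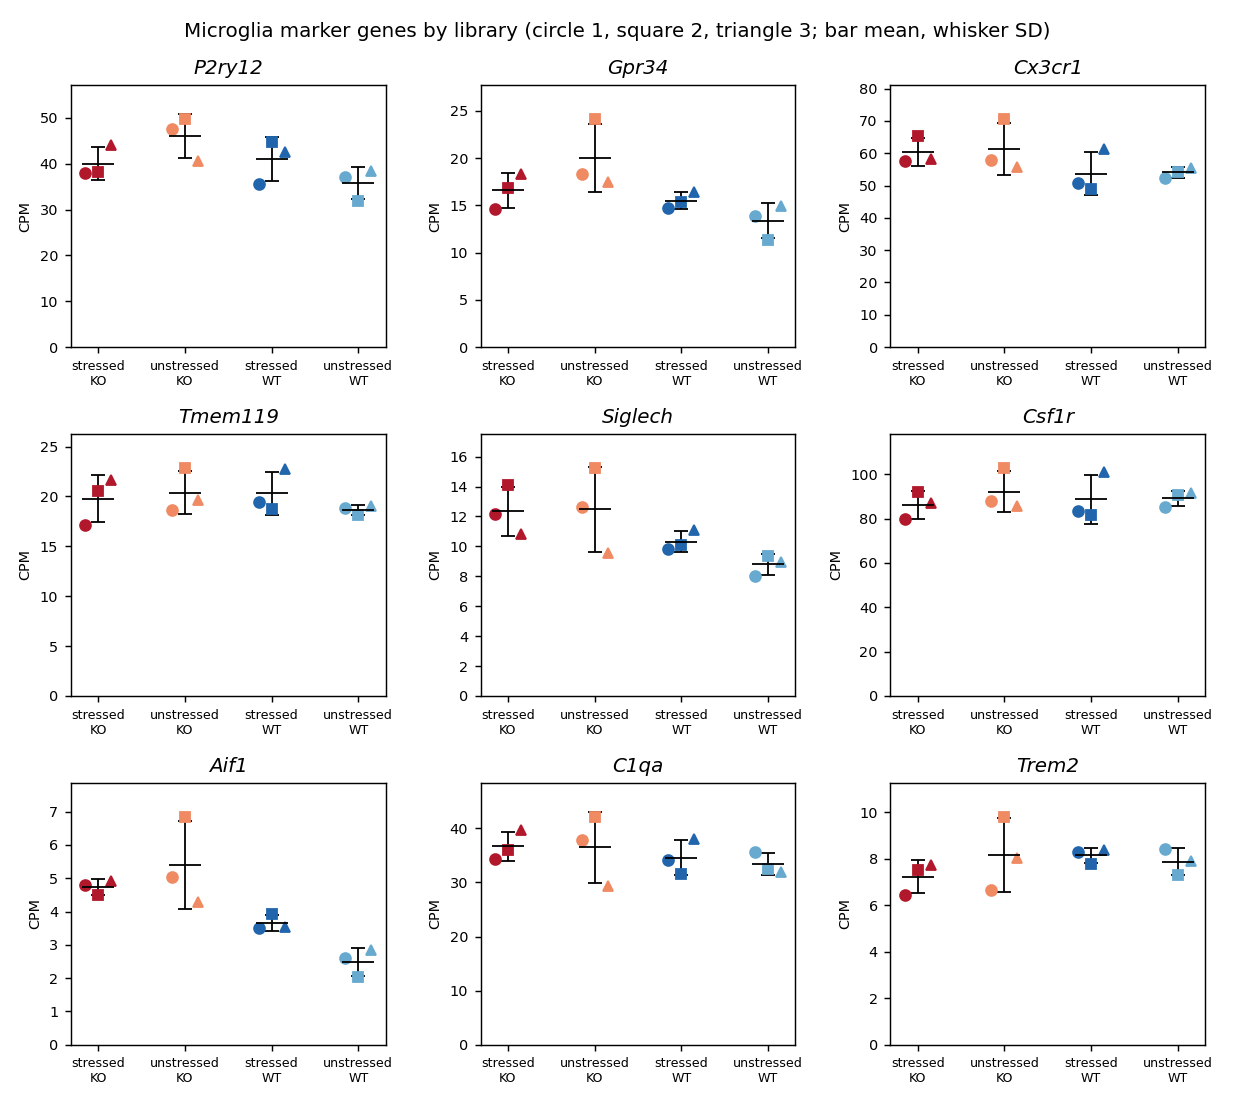
Level of each of the 9 microglia marker genes in CPM (y axis, from 0) in each library, by group (x axis); symbols are libraries, bars are means and whiskers SD over 3 libraries. Unstressed KO library 2 is the highest of all 12 libraries in every panel, and the 3 unstressed WT libraries lie below the 3 unstressed KO libraries for Aif1, Gpr34, Siglech, P2ry12 and Cx3cr1.

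The members differed in how far they varied. The highest library of Aif1 was 3.38 times the lowest, that of Gpr34 2.13 times and that of Siglech 1.89 times. Csf1r varied least, by 1.29 times, with a coefficient of variation of 8.06% over the 12 libraries, against 31.9% for Aif1. Over the 36 pairs of members, Pearson's r of log2 CPM across the 12 libraries ran from -0.01 to 0.89 with a median of 0.57. The highest was that of Gpr34 and Aif1 and the lowest that of Siglech and Trem2; the 12 points share groups and the tissue differences named above. Unstressed KO library 2 had the highest level of all 9 members, while the lowest level fell in 5 different libraries.

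In unstressed mice, 4 of the 9 microglia genes were higher in KO than in WT, and none was lower. They were Aif1, Gpr34, Siglech and P2ry12, with fold differences of 2.2, 1.5, 1.4 and 1.3. The receptor gene Csf1r, the complement gene C1qa, Trem2 and Tmem119 had differences of 0.05, 0.13, 0.05 and 0.13 on the log2 scale, and Cx3cr1 lay between at 0.18. Of all genes tested in this comparison, 23.2% passed the same threshold, an adjusted p under 0.05 by edgeR's quasi-likelihood test, and 11.2% passed it upwards. At an unadjusted p under 0.05 the same 4 members passed, beside 39.1% of all genes, and DESeq2 called the same 4, beside 27.5% of all genes.

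Aif1 had 5.03, 6.84 and 4.28 CPM in the 3 unstressed KO libraries, against 2.62, 2.02 and 2.85 CPM in the 3 unstressed WT libraries. Every KO library was above every WT library. The log2 difference was 1.11 ± 0.19 (SE; 95% interval 0.70 to 1.52; edgeR adjusted p = 0.00774). Gpr34 had 18.4, 24.1 and 17.5 CPM in unstressed KO and 13.9, 11.3 and 14.9 CPM in unstressed WT. Its groups did not overlap either, and its log2 difference was 0.58 ± 0.14 (95% interval 0.28 to 0.89; edgeR adjusted p = 0.0172).

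Siglech had 12.7, 15.2 and 9.56 CPM in unstressed KO and 8.05, 9.38 and 8.94 CPM in unstressed WT. Its groups were separated by a narrow margin, between KO library 3 and WT library 2. The log2 difference was 0.51 ± 0.16 (95% interval 0.17 to 0.85; edgeR adjusted p = 0.0373). P2ry12 had 47.6, 49.7 and 40.7 CPM in unstressed KO and 37.1, 32.0 and 38.5 CPM in unstressed WT. Here too no WT library reached the lowest KO library, and the log2 difference was 0.36 ± 0.11 (95% interval 0.12 to 0.60; edgeR adjusted p = 0.0374).

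Cx3cr1 was the fifth gene whose groups did not overlap, with 58.0, 70.5 and 55.6 CPM in unstressed KO and 52.3, 54.3 and 55.6 CPM in unstressed WT. The lowest KO and the highest WT library nearly touch, and the difference of 0.18 ± 0.11 did not pass (edgeR adjusted p = 0.218). In all, 5 of 9 members had all 3 KO libraries above all 3 WT libraries, against 18.5% of all genes tested. Csf1r had 87.8, 103 and 85.9 CPM in unstressed KO, against 85.2, 90.6 and 91.6 CPM in unstressed WT. Its groups overlapped widely, and the 95% interval of its log2 difference ran from -0.17 to 0.26. C1qa had 37.9, 42.1 and 29.4 CPM in unstressed KO and 35.7, 32.5 and 31.9 CPM in unstressed WT. Its unstressed KO libraries spanned its unstressed WT libraries. Tmem119 ran from 18.7 to 22.9 CPM in unstressed KO and from 18.1 to 19.0 CPM in unstressed WT. Trem2 ran from 6.67 to 9.81 CPM in unstressed KO and from 7.30 to 8.43 CPM in unstressed WT. Neither passed (edgeR adjusted p = 0.421 for Tmem119 and 0.821 for Trem2). All 9 differences were positive, with a median of 0.18, while the median of all genes tested was 0.004. Without unstressed KO library 2 those of Csf1r and Trem2, within 1 SE of 0 here, stood at -0.04 and -0.10.

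The shares of Aif1, Gpr34, P2ry12 and Csf1r within the sum of the 9 members did not overlap between the same groups. Those of Cx3cr1, Tmem119, Siglech, C1qa and Trem2 overlapped. Aif1 made up 1.58 to 1.99% of the summed CPM of the 9 genes in unstressed KO and 0.79 to 1.05% in unstressed WT. Csf1r made up 29.9 to 31.7% in unstressed KO and 32.5 to 35.2% in unstressed WT. The sum itself was 293, 344 and 271 CPM in unstressed KO and 262, 258 and 271 CPM in unstressed WT, so that library 3 of both groups stood at the same level.

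The calls depended on a few libraries. Without unstressed KO library 2, which was highest for every member, only Aif1 of the 9 passed (0.91 on the log2 scale, edgeR adjusted p = 0.0329), beside 988 of all genes. Gpr34, Siglech and P2ry12 then stood at 0.43, 0.34 and 0.30. With unstressed WT library 3 as the only unstressed WT library, the differences were 0.92 ± 0.25 for Aif1, 0.42 for Gpr34, 0.48 for Siglech and 0.26 for P2ry12. That setting leaves 1 library to stand for the group, whose spread is assumed to be like that of the others. With the olfactory bulb marker score as a covariate 0 of 9 passed, beside 13 of all genes, against 3529 in the main fit. With only these 2 groups in the fit 0 of 9 passed too, beside 18 of all genes. Aif1 stood there at 1.11 (edgeR adjusted p = 0.0573). Without unstressed WT library 2 Aif1 alone passed, beside 234 of all genes. Without library 1 of WT or of KO Aif1 and Gpr34 did, beside 1542 and 2411 of all genes. In unstressed WT library 3, the highest of its group, Aif1 had 2.85 CPM, below every unstressed KO library. The part that the bulb and meningeal tissue of unstressed WT libraries 1 and 2 had in the member values was not tested beyond these values.

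**Figure D2:**
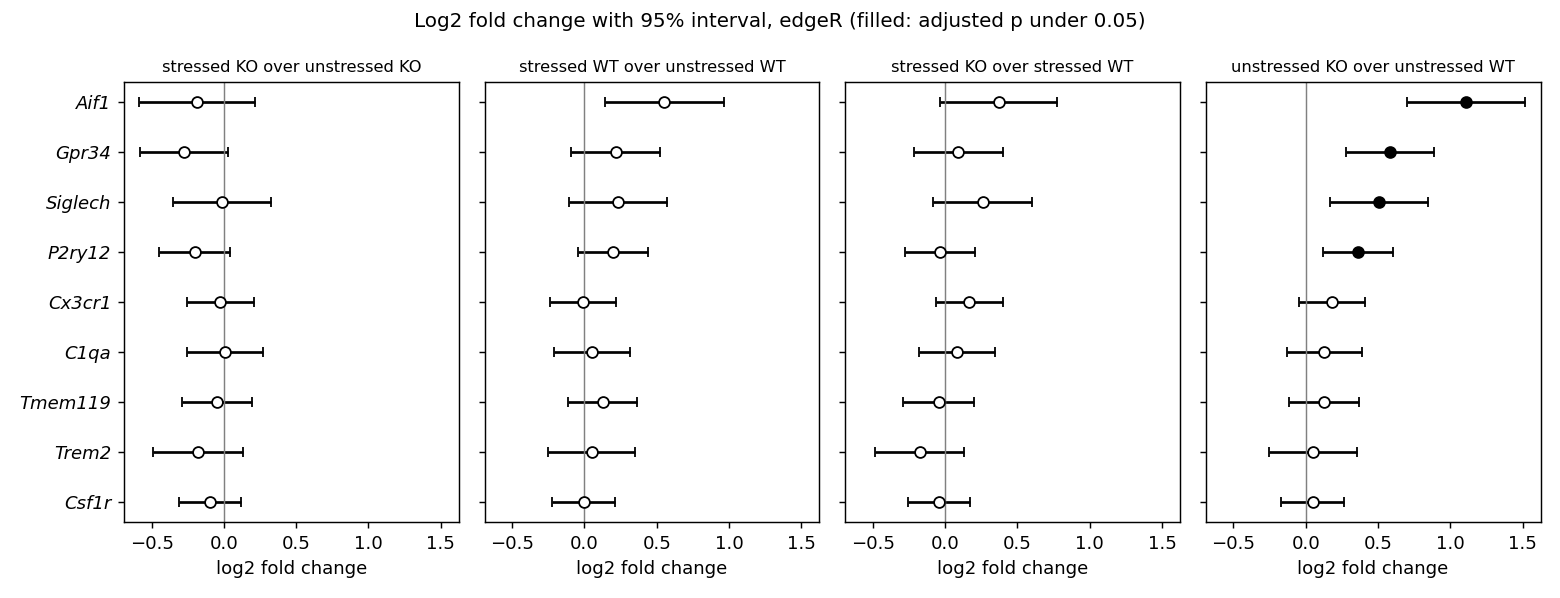
Log2 fold change (x axis) with its 95% interval for each of the 9 genes (y axis) in 4 comparisons, from the edgeR fit of all 12 libraries; filled points passed an adjusted p under 0.05. Filled points stand only in the comparison of unstressed KO with unstressed WT, for Aif1, Gpr34, Siglech and P2ry12.

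In stressed mice, 0 of the 9 genes passed between KO and WT, where 0.25% of all genes tested passed. None had an unadjusted p under 0.05 in edgeR, beside 13% of all genes, and DESeq2 called 0, beside 1.97% of all genes. Aif1 again separated the groups, with 4.80, 4.48 and 4.93 CPM in stressed KO and 3.50, 3.94 and 3.55 CPM in stressed WT. Its log2 difference was 0.37 ± 0.19 (95% interval -0.03 to 0.78; edgeR adjusted p = 0.429). Trem2, the receptor for lipids and apolipoproteins, lay the other way. It had 6.44, 7.52 and 7.75 CPM in stressed KO and 8.28, 7.79 and 8.36 CPM in stressed WT, a difference of -0.18 ± 0.14 (edgeR adjusted p = 0.649). The margin between the groups of Trem2 was narrow, and these were 1 of 9 members higher without overlap and 1 of 9 lower, against 10.8% and 11.3% of all genes tested.

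Siglech had 12.2, 14.1 and 10.8 CPM in stressed KO and 9.81, 10.1 and 11.1 CPM in stressed WT, groups that overlapped (0.26 ± 0.16). P2ry12 had 37.9, 38.1 and 44.1 CPM in stressed KO and 35.6, 44.8 and 42.6 CPM in stressed WT. Gpr34 had 14.6, 16.8 and 18.3 CPM in stressed KO and 14.8, 15.3 and 16.5 CPM in stressed WT. For both receptor genes the groups were mixed, and the differences were -0.04 ± 0.11 for P2ry12 and 0.09 ± 0.14 for Gpr34. For P2ry12 the 95% interval ran from -0.28 to 0.21. Without stressed KO library 1 the differences were 0.0016 for P2ry12 and 0.18 for Gpr34. Cx3cr1 had 57.5, 65.4 and 58.2 CPM in stressed KO and 50.7, 49.0 and 61.3 CPM in stressed WT, with overlap through stressed WT library 3. The remaining members, Csf1r, C1qa and Tmem119, had differences of -0.04, 0.08 and -0.05. Over all 9 members 5 differences were positive and 4 negative, with a median of 0.08 beside -0.003 for all genes tested.

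Stress in KO mice changed 0 of the 9 genes past the threshold, in a comparison in which 0.0197% of all genes tested passed. None had an unadjusted p under 0.05 in edgeR, beside 9.2% of all genes, and DESeq2 called 0, beside 0.303%. The values were mostly lower with stress: 8 of the 9 differences were negative, with a median of -0.10 beside -0.004 for all genes tested. Gpr34 had the largest, at -0.28 ± 0.14 (edgeR adjusted p = 0.581), followed by P2ry12 at -0.20 ± 0.11 (0.611) and Aif1 at -0.19 ± 0.18 (0.794). Without unstressed KO library 2 these stood at -0.12, -0.14 and 0.02, so the sign of Aif1 turned. Without it Siglech and Cx3cr1 were positive too, at 0.15 and 0.09. In that library alone Gpr34 reached 24.1 CPM, against 14.6 to 18.3 CPM in stressed KO and 17.5 and 18.4 CPM in the other unstressed KO libraries.

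In WT mice stress changed 0 of the 9 genes past the threshold in edgeR, where 21.9% of all genes tested passed. Aif1 was the nearest and the only member with an unadjusted p under 0.05 (38.2% of all genes had one), with 3.50, 3.94 and 3.55 CPM in stressed WT and 2.62, 2.02 and 2.85 CPM in unstressed WT. Its groups did not overlap, the log2 difference was 0.55 ± 0.19, and the edgeR adjusted p was 0.0542. DESeq2 put it on the other side of the threshold (adjusted p = 0.0443), in a comparison in which DESeq2 called 26.5% of all genes. In edgeR it also passed without unstressed WT library 3 (0.65) or without unstressed KO library 2 or 3, beside 5635, 3364 and 3226 of all genes. With unstressed WT library 3 alone as the unstressed group the difference was 0.36 on the log2 scale. Siglech also had stressed WT libraries, at 9.81, 10.1 and 11.1 CPM, above all unstressed ones, at 8.05, 9.38 and 8.94 CPM, but its difference of 0.23 ± 0.16 did not pass (edgeR adjusted p = 0.293). These were 2 of 9 members, against 19.4% of all genes tested. The other 7 members overlapped between the groups. Gpr34 and P2ry12 stood at 0.22 ± 0.14 and 0.20 ± 0.11. Without unstressed WT library 2 these were 0.10 and 0.11, and with unstressed WT library 3 alone 0.06 and 0.09. Csf1r and Cx3cr1 stood at -0.01 each. The 8 oligodendrocyte and myelin genes summed to 1907 to 3316 CPM in stressed WT and 1294 to 1548 CPM in unstressed WT. The olfactory bulb and meningeal markers given above also differed between these groups, and the part of either in the member values was not tested.

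The unstressed WT libraries are used in both the comparison of genotypes without stress and that of stress in WT, so their results are not separate lines of evidence. Side by side, Aif1 stood at 1.11 and 0.55 in these comparisons, Gpr34 at 0.58 and 0.22, Siglech at 0.51 and 0.23, and P2ry12 at 0.36 and 0.20. By group mean Aif1 was 4.74 ± 0.23 CPM in stressed KO, 5.39 ± 1.32 in unstressed KO, 3.66 ± 0.24 in stressed WT and 2.50 ± 0.43 in unstressed WT (SD, n = 3 each). Gpr34 was 16.6 ± 1.86 CPM in stressed KO, 20.0 ± 3.59 in unstressed KO, 15.5 ± 0.86 in stressed WT and 13.4 ± 1.85 in unstressed WT. For both genes the unstressed WT group had the lowest mean of the 4.

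Whether the effect of stress differed between genotypes was tested as an interaction, the log2 effect of stress in KO minus that in WT. It passed for 0 of the 9 members and for 0% of all genes tested in edgeR, while DESeq2 called 0 members and 12.4% of all genes. All 9 values were negative, with a median of -0.23 beside -0.02 for all genes. Without unstressed KO library 2 Cx3cr1 and C1qa, within 1 SE of 0 here, turned to 0.09 and 0.06. An unadjusted p under 0.05 was found for 3 members and for 28.5% of all genes tested: Aif1 at -0.74 ± 0.26 (edgeR adjusted p = 0.103), Gpr34 at -0.49 ± 0.20 (0.136) and P2ry12 at -0.40 ± 0.16 (0.128). Without unstressed WT library 3, Aif1 passed (-0.83, edgeR adjusted p = 0.0422), as did 3851 of all genes.

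Averaged over both stress states, KO exceeded WT for Aif1, at 0.74 ± 0.13 (edgeR adjusted p = 0.0138), and its KO libraries ran from 4.28 to 6.84 CPM against 2.02 to 3.94 CPM in WT. All 6 KO libraries were thus above all 6 WT libraries, and the share of all genes that separate in this way was not counted. Aif1 was the only one of the 9 that passed, where 6.33% of all genes tested passed and 3.11% passed upwards. Siglech (0.38 ± 0.11, edgeR adjusted p = 0.0576) and Gpr34 (0.34 ± 0.10, 0.0626) lay just short of the threshold. With Cx3cr1 they made 4 members at an unadjusted p under 0.05, beside 27.4% of all genes. DESeq2 called Aif1, Siglech and Gpr34, beside 12.6% of all genes. With unstressed WT library 3 as the only unstressed WT library, Aif1 stood at 0.64 and did not pass, and without unstressed KO library 2 and stressed KO library 1 it stood at 0.63 and did not pass either. Averaged over both genotypes, stress changed 0 of the 9 genes, where 0.0395% of all genes tested passed; none had an unadjusted p under 0.05 in edgeR (23.8% of all genes had one), and DESeq2 called 0, beside 7.9% of all genes.

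**Figure D3:**
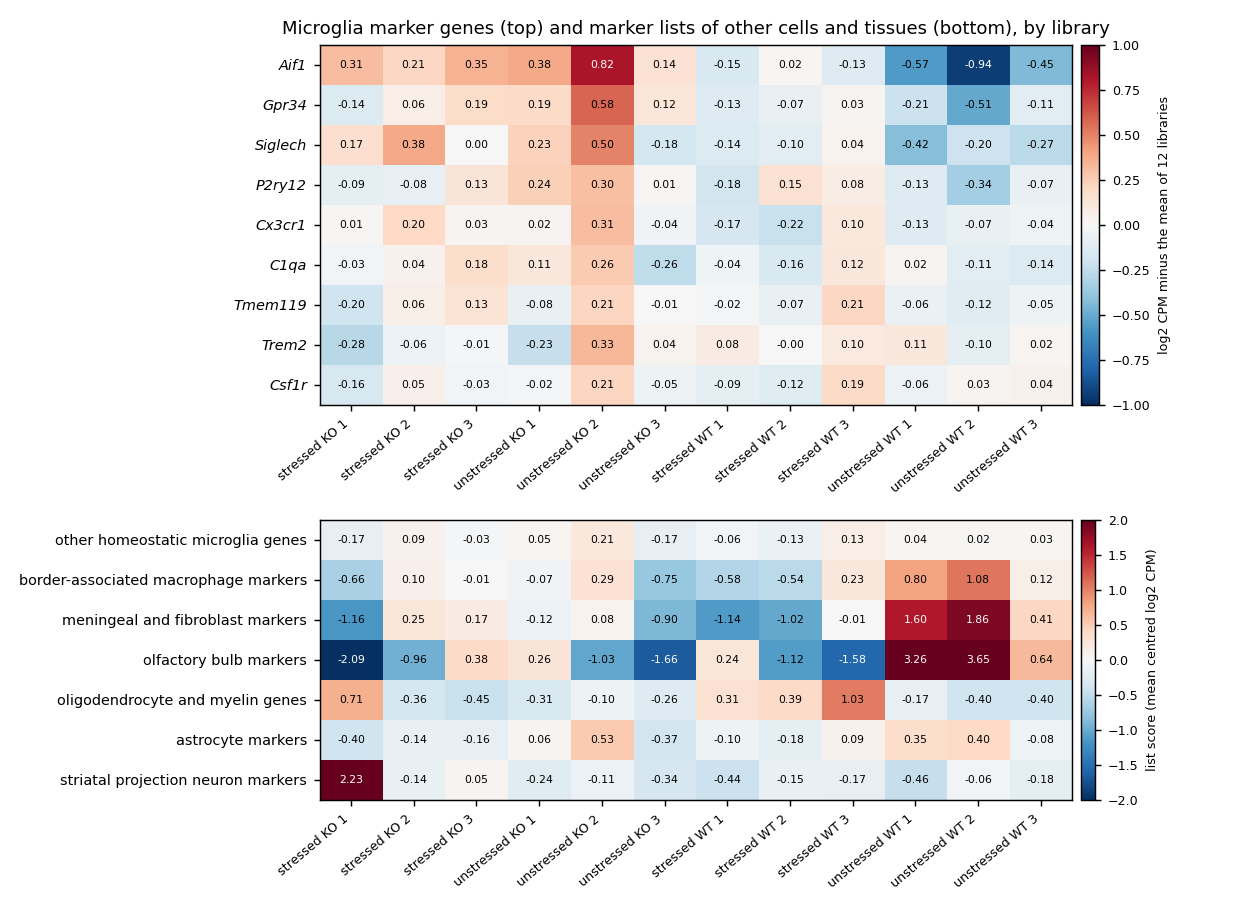
Each of the 9 genes (top) and a selection of the other gene lists (bottom) in each library (columns), as log2 CPM centred over the 12 libraries, averaged over a list. The bottom lists are the wider set of homeostatic microglia genes and markers of other cells and tissues. Unstressed WT libraries 1 and 2 stand out for olfactory bulb and meningeal markers, and unstressed KO library 2 has the highest value of every member.

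Other macrophages were tracked beside the microglia genes, since Csf1r, Cx3cr1, Aif1 and C1qa are also made by macrophages at the borders of the brain. The summed level of the 9 tested of 11 border macrophage markers was 25.1 to 37.4 CPM in unstressed KO and 44.8 to 72.8 CPM in unstressed WT. In that comparison 3 of them fell and 0 rose: Cd163, a scavenger receptor for haemoglobin, by 1.44, Dab2, an endocytic adaptor, by 1.13 and Stab1, a scavenger receptor, by 0.66 on the log2 scale, where 12.1% of all genes tested fell. In stressed against unstressed WT 4 fell and 0 rose, with Mrc1, the mannose receptor, at -1.51 in addition to Cd163 (-1.34), Dab2 (-1.30) and Stab1 (-0.67); 12.1% of all genes tested fell there too. With unstressed WT library 3 alone as the unstressed WT group none passed, and in unstressed KO Cd163, Dab2 and Stab1 stood at -1.16, -0.53 and -0.54. None passed in stressed against unstressed KO or in stressed KO against stressed WT in edgeR, at an unadjusted p under 0.05 or in DESeq2. The shares of all genes tested there were 0.0197% and 0.25% in edgeR, 9.2% and 13% unadjusted, and 0.303% and 1.97% in DESeq2. Of 12 blood leukocyte markers 2 passed the filter on low counts. Of these Ccr2, the chemokine receptor of monocytes, fell by 1.84 in stressed against unstressed WT (-1.63 with library 3 alone). Its counts averaged 4.3 per library in stressed WT, close to a count of 3, and 18.7 in unstressed WT.

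A wider set of 20 homeostatic microglia genes, all tested, was set beside the 9. Its median difference between unstressed KO and unstressed WT was 0.05, with 12 positive and 8 negative values. In edgeR 0 rose and 1 fell, beside 11.2% and 12.1% of all genes tested. An unadjusted p under 0.05 was found for 5 of the 20, beside 39.1% of all genes, and DESeq2 called 2, beside 27.5% of all genes. The single gene that fell was Sall1, a transcription factor of microglia that other brain cells also express, at -1.61 in unstressed KO against unstressed WT. Sall1 also fell in stressed against unstressed WT (-1.78), where 12.1% of all genes tested fell too. Its levels were 35.9, 26.1 and 19.8 CPM in unstressed KO and 121, 94.3 and 34.6 CPM in unstressed WT, the high ones in the same 2 libraries that held olfactory bulb markers. Against unstressed WT library 3 alone, the differences of Sall1 were -0.34 and -0.51, and neither passed.

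Among 11 tested partners of C1q and Trem2, Tyrobp rose and C4b fell in unstressed KO against unstressed WT. Of all genes tested 11.2% rose and 12.1% fell there. Tyrobp encodes DAP12, the adaptor through which Trem2 signals, and had 10.1, 12.8 and 7.32 CPM in unstressed KO and 7.78, 6.65 and 6.79 CPM in unstressed WT. KO library 3 fell within the range of WT, and the log2 difference was 0.52 ± 0.17 (edgeR adjusted p = 0.049). C4b, a complement component, stood at -1.19 in this comparison and also fell in stressed against unstressed WT (-1.69). Against library 3 of unstressed WT alone C4b stood at -0.21 and -0.71 and Tyrobp at 0.57, and none passed. C1qb and C1qc, the other chains of C1q, did not pass, at 0.19 and -0.002. In the other 5 comparisons 0 of the 11 passed in edgeR, with at most 1 at an unadjusted p under 0.05 and at most 1 called by DESeq2. The shares of all genes there were 0% to 6.33% in edgeR, 9.2% to 28.5% unadjusted and 0.303% to 12.6% in DESeq2.

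Of 11 ligands and signals to microglia, Cd200, a neuronal membrane protein whose receptor restrains microglia, rose in unstressed KO against unstressed WT (0.46, edgeR adjusted p = 0.0199). Of all genes tested 11.2% rose there. Csf1, a ligand of Csf1r, fell by 0.33 in this comparison and in stressed against unstressed WT, where 12.1% of all genes fell each time. Tgfb2 fell by 0.51 in the second. None of them passed against unstressed WT library 3 alone: Cd200 stood at 0.22, Csf1 at -0.24 and -0.25, and Tgfb2 at -0.25. Il34, the other ligand of Csf1r, and Cx3cl1, the ligand of Cx3cr1, passed in neither. The 11 transcription factors of microglia included 0 that passed in any of the 7 comparisons; Spi1 itself stood at 0.25 between unstressed KO and unstressed WT (edgeR adjusted p = 0.419). An unadjusted p under 0.05 was found for at most 2 of them in any comparison, and DESeq2 called at most 1. Over the 7 comparisons edgeR called 0% to 23.2% of all genes tested. An unadjusted p under 0.05 was found for 9.2% to 39.1%, and DESeq2 called 0.303% to 27.5%.

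Among 10 genes of TGF-beta activation and signalling, which microglia need to keep their homeostatic state, Itgb8 fell in 6 comparisons. In these, 0.0132% (stress in KO) to 12.1% (stress in WT and genotype without stress) of all genes tested fell. Itgb8 encodes an integrin subunit that frees latent TGF-beta. Its levels were 16.1 ± 1.19 CPM in stressed KO, 27.9 ± 1.96 in unstressed KO, 25.5 ± 1.99 in stressed WT and 34.6 ± 2.60 in unstressed WT (SD, n = 3 each). Stress in KO gave -0.79 ± 0.09 (edgeR adjusted p = 0.0112) and KO against WT under stress -0.66 ± 0.09 (edgeR adjusted p = 0.0099), and stress in WT and KO against WT without stress gave -0.44 and -0.32. With unstressed WT library 3 alone as the unstressed WT group these last values were -0.33 and -0.20 and did not pass. Itgav, its partner subunit, fell by 0.37 and Tgfbr2, a receptor subunit, by 0.44 with stress in WT; with library 3 alone they stood at -0.35 and -0.18 and did not pass.

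Of 17 tested genes of the disease-associated state of microglia, 0 rose and 2 fell in unstressed KO against unstressed WT, where 12.1% of all genes tested fell. They were Spp1, osteopontin, which fell by 2.57, and Igf1, a growth factor, which fell by 0.83. Both are also made by other cells, and Spp1 had 7.82, 4.15 and 3.94 CPM in unstressed KO and 48.9, 39.7 and 6.56 CPM in unstressed WT, with the high values again in libraries 1 and 2. With stress in WT, Spp1 (-2.57) and Igf1 (-1.33) fell and Ctsb, a lysosomal protease, rose by 0.29. Of all genes tested 12.1% fell and 9.71% rose with stress in WT. An unadjusted p under 0.05 was found there for 8 of the 17, beside 38.2% of all genes. DESeq2 called 5 of them, beside 26.5% of all genes. Of 19 inflammatory genes only 12 had enough counts to test; Tnf, Il6, Ccl2, Ccl3, Ccl4, Ccl12 and Cxcl10 did not. Casp1, the inflammasome protease, fell by 1.31 in unstressed KO against unstressed WT and by 1.67 with stress in WT, where 12.1% of all genes fell each time. In stressed KO against stressed WT and with stress in KO 0 genes of either list passed in edgeR, beside 0.25% and 0.0197% of all genes. An unadjusted p under 0.05 was found in stressed KO against stressed WT for 3 of the 17 and 1 of the 12, beside 13% of all genes. With stress in KO it was found for 0 of both, beside 9.2% of all genes. DESeq2 called 0 in either, beside 1.97% and 0.303% of all genes. Against library 3 of unstressed WT none of these genes passed; in unstressed KO against that library Spp1 stood at -0.30, Igf1 at 0.00062 and Casp1 at 0.02, and with stress in WT they stood at -0.30, -0.49 and -0.34 and Ctsb at 0.29.

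**Figure D4:**
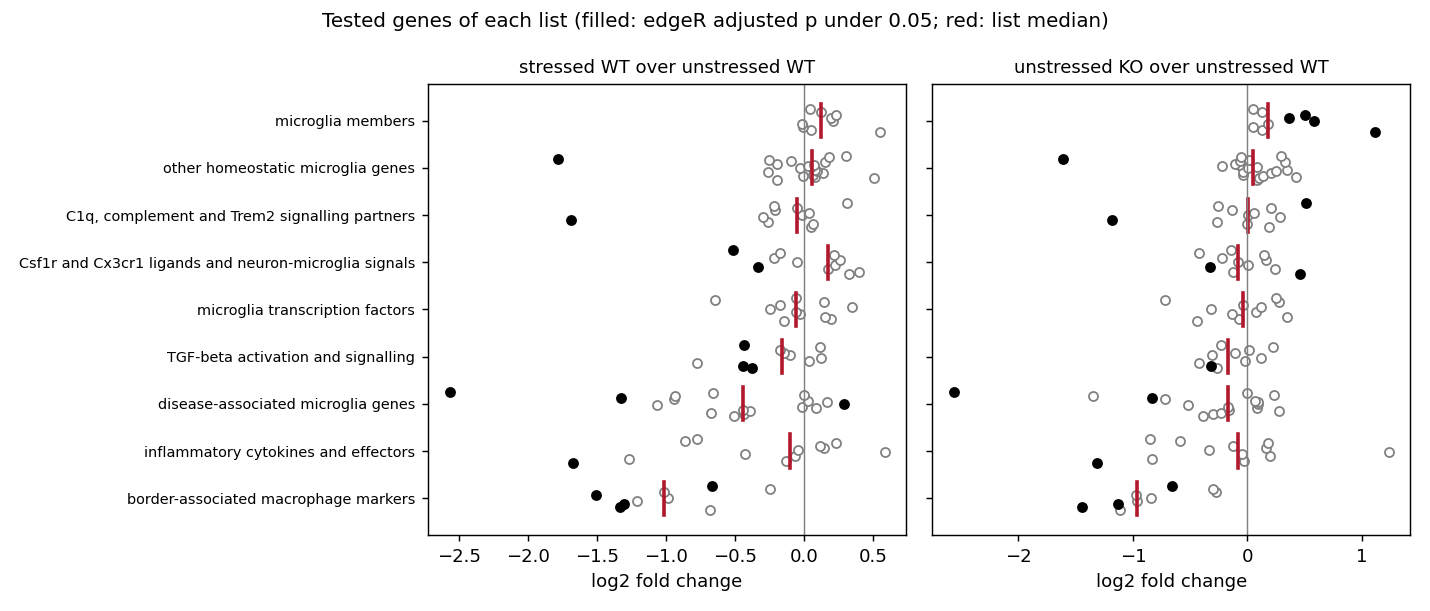
Log2 fold change (x axis) of every tested gene of each list (y axis) by comparison; filled points passed an edgeR adjusted p under 0.05 and red marks are list medians. The 9 members lie to the right of 0 in unstressed KO against unstressed WT, while the border macrophage markers lie to the left.

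The genes whose levels most resembled the mean profile of the 9 members over the 12 libraries included St6galnac6, Rps15, Pdzd4, Tma7, Rps2, Ncs1, Kcmf1, Mrpl57 and Cox6b1, with Pearson's r from 0.93 to 0.96 among 13811 genes searched. After each group was centred on its own mean, the 10 nearest were Phactr3, Phospho2, St6galnac6, Cd164l2, Dio2, Cpe, Golm1, Fermt2, Nup37 and Fcrls, with r from 0.93 to 0.98. Fcrls is a receptor-like gene of microglia, while Dio2 and Cpe are known from astrocytes and from neuroendocrine cells. Taken singly, C1qa was nearest to C1qb, the neighbouring chain of C1q (r = 0.932). Aif1 was nearest to Ywhae (0.978), P2ry12 to Trmt10c (0.96), Gpr34 to Kcmf1 (0.937), Tmem119 to Mgll (0.923) and Cx3cr1 to Endov (0.907). Siglech was nearest to Lyrm2 (0.89), Csf1r to Shank1 (0.874) and Trem2 to Gp1bb (0.833). With 12 points and this many genes these are descriptions of the libraries, which share groups and tissue.

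All 9 members are protein-coding genes on GRCm38. Aif1 lies on chromosome 17 from 35170991 to 35176068 and Trem2 on the same chromosome from 48346401 to 48354147. Gpr34 lies on the X chromosome from 13632089 to 13640858, P2ry12 on chromosome 3 from 59216272 to 59262871 and Siglech on chromosome 7 from 55768178 to 55778925. Gpr34 lies within the span of Cask and P2ry12 within that of Med12l, both tested genes on the opposite strand. Cx3cr1 overlaps 4 tested genes, of which Csrnp1 and Gorasp1 are on its own strand, and Csf1r overlaps Hmgxb3. Whether reads were counted by strand is not given in the sources used here, so reads from opposite strands may have been counted together for these genes. Aif1, Siglech, Tmem119, C1qa and Trem2 overlap no tested gene, and no member had a decimal in its estimated counts, the sign of reads shared between similar sequences.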

How the data were processed

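Total RNA of female mPFC, extracted with an RNeasy kit, was sequenced from libraries of the NEBNext Ultra II Directional kit, per the labels' protocols. The authors deposited 1 table of estimated counts per gene symbol for the 12 libraries, not normalised; Trim Galore 0.6.6, STAR 2.7.9a, RSEM 1.3.1, DESeq2 1.36.0 and the build mm10 are named in the submitters' processing notes. The annotation used, like the strandedness of the counting, is not given in the sources used here.

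Estimated counts were rounded to whole numbers, and edgeR's filterByExpr (minimum count 10, minimum total 15) left 15199 of 24411 genes. CPM use TMM factors, and log2 CPM a prior count of 2. The 7 comparisons (stressed against unstressed in KO and in WT, KO against WT with and without stress, the interaction, and both averages) were contrasts of 4 group means in 1 quasi-likelihood fit of 12 libraries, with 8 residual degrees of freedom. Tests were two-sided, adjusted by Benjamini-Hochberg over all genes tested, with 0.05 as the threshold. With 3 libraries a side an exact permutation test reaches 0.1 at best and was not used. Alternatives were DESeq2's size factors, no filter, DESeq2, only the groups compared, a replicate block and each library left out. Software was R 4.3.3, edgeR 4.0.16, limma 3.58.1 and DESeq2 1.42.0. Libraries of 1 group differed by more than sampling noise (chi-square over its degrees of freedom 5.07 to 72.1), so none was taken for the same library deposited again; repeat preparations from 1 animal would differ by more than that noise too.

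The members and the 17 other gene lists were chosen with earlier results of these data known. All members are named. Of the other lists, genes are named that passed in a comparison, at most 4 per comparison, or up to 3 with the smallest p where none passed. The 10 genes most like the mean profile of the members, and the 1 most like each member, were searched among genes whose mean log2 CPM was 0 or more; 1 of the 10 is not reported here. Spi1, C1qb, C1qc, Il34, Cx3cl1 and Lst1, given outside the rule for lists, and single-library values of genes that are no members were chosen after values were seen. Levels per kilobase use the longest principal transcript of GENCODE mouse release M21 on GRCm38. Limits of a count cover counting error only.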

Additional observations from a re-analysis of the deposited data

How the results depend on the processing

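The number of members called held at 0 under every alternative run for stress in KO, genotype with stress and average stress; none of these has a call to lose. For stress in WT, 0 of 9 were called by edgeR, 1 by DESeq2, 0 to 1 with a library left out and 1 without unstressed KO library 2 and stressed KO library 1; the 1 is Aif1 each time. For genotype without stress, 4 were called, and 0 with only these 2 groups in the fit, 0 with unstressed WT library 3 alone, 0 with a covariate for olfactory bulb markers, 1 without unstressed KO library 2 and stressed KO library 1, and 1 to 4 with a library left out (1 without unstressed WT library 2 or unstressed KO library 2, 2 without library 1 of either group). Aif1 passed in each fit with 1 library left out (0.91 to 1.25, highest edgeR adjusted p = 0.0435), and stood at 0.96 ± 0.29 with the covariate (adjusted p = 0.276). With that covariate the other 3 stood at 0.50 (Gpr34), 0.47 (Siglech) and 0.31 (P2ry12). For the interaction, 0 to 1 were called with a library left out, the 1 being Aif1 without unstressed WT library 3. For average genotype, 1 was called, and 3 by DESeq2, 1 to 3 with a library left out, 0 with unstressed WT library 3 alone, 0 with the covariate and 0 without unstressed KO library 2 and stressed KO library 1. Signs turned for 5 values that lay more than 1 SE from 0 in the main fit. The stress effect in KO of Aif1 (-0.19) ran from -0.32 to 0.021 with a library left out. Without unstressed KO library 2 and stressed KO library 1, stress in KO gave 0.0092 for Aif1 and 0.057 for Trem2, and the interaction gave 0.012 for Tmem119 and 0.0060 for Trem2. Values within 1 SE of 0 in the main fit are left out of these 5, and several of them changed sign as well. Without unstressed KO library 2, Csf1r and Trem2 stood at -0.04 and -0.10 for genotype without stress. The last 3 settings (library 3 alone, the covariate and both KO libraries left out) were chosen after seeing the data, and the cause of each change was not tested. The replicate numbers did not pair the libraries (18 same-number pairs, r from -0.25 to 0.36, 4 over 0.1, 5 of 18 closest to their own number). With a replicate block 3 members were called for genotype without stress, P2ry12 moving to an adjusted p of 0.0537 in edgeR. Counts over all genes moved far more. For stress in WT, 3322 were called, 1 with only these groups, 0 with library 3 alone, 0 with the covariate and 0 to 5635 with a library left out. For genotype without stress, 3529 were called, 18 with only these groups, 18 with library 3 alone, 13 with the covariate, 795 without both KO libraries and 234 to 5729 with a library left out. For the interaction, 0 were called, 198 with DESeq2's size factors, 143 without the filter, 1885 by DESeq2 and 0 to 3851 with a library left out. For average genotype, 962 were called, 1920 by DESeq2, 78 with library 3 alone, 32 with the covariate, 123 without both KO libraries and 164 to 3308 with a library left out. For stress in KO, 3 were called, 46 by DESeq2, 6 with the covariate and 1 to 5 with a library left out. For genotype with stress, 38 were called, 299 by DESeq2, 82 with library 3 alone, 64 with the covariate, 21 without both KO libraries and 19 to 116 with a library left out. For average stress, 6 were called, 1200 by DESeq2, 25 with a replicate block, 1 with library 3 alone, 1 with the covariate, 14 without both KO libraries and 2 to 3003 with a library left out.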

Other observations

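Lst1, a leukocyte gene that neighbours Aif1 on chromosome 17, was looked up after the values of Aif1 were seen. It had 1.75, 2.51 and 1.49 CPM in unstressed KO and 0.69, 0.49 and 1.03 CPM in unstressed WT, groups that did not overlap. Its log2 difference was 1.38 ± 0.30 (edgeR adjusted p = 0.0135). The counts behind it were low, 46, 55 and 30 in unstressed KO libraries 1 to 3 and 20, 16 and 31 in unstressed WT libraries 1 to 3. No value of Lst1 with a library left out is given here. In stressed KO it had 1.4 to 1.6 CPM, against 0.94 to 1.5 CPM in stressed WT, and the difference of 0.19 ± 0.30 did not pass (edgeR adjusted p = 0.84). Of 26 tested genes within 250 kilobases of Aif1, 7 passed in unstressed KO against unstressed WT and 2 of these were higher, beside 23.2% of all genes that passed and 11.2% that passed upwards. The median difference of the 26 was -0.14.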
